A study of Saccharomyces cerevisiae with 12 samples.

Results

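The genes for the proteins of the cytosolic ribosome of budding yeast, Saccharomyces cerevisiae, were examined in 6 groups of galactose-grown cultures. They were chosen by symbol: RPL for the large subunit, RPS for the small subunit, and RPP0, RPP1A, RPP1B, RPP2A and RPP2B for the stalk. The rule took 127 of the 5449 yeast genes measured, namely 70 large subunit, 52 small subunit and 5 stalk genes, each read from its probe set with the highest mean. The R64 annotation lists 137 such genes, and the other 10 are not analysed here. All 127 lay above background.

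The study hybridised total RNA to 12 Affymetrix arrays, 2 per group, to ask how faster use of galactose is reflected in the transcriptome. Every culture had the CEN.PK113-7D background, grew in minimal galactose medium in pH-controlled fermenters and was sampled in mid-exponential phase. E62A, E62B and E62C are evolved mutants selected on galactose. SO16 is an engineered strain that, as known from the study, lacks GAL80, MIG1 and LAP3, and PGM2 is a strain engineered to overexpress phosphoglucomutase 2. REF is the reference strain. Nothing in the labels ties the arrays of a group to separate cultures or clones, so the gap between those arrays may be technical variation. A p-value of the main fit weighs a difference against such gaps, pooled for each gene over all groups and drawn towards those of other genes. It therefore does not measure the spread of the compared groups alone, and the spread of any group enters every comparison.

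A ribosome joins a small subunit, which reads the mRNA, to a large subunit, which forms the peptide bond, and the stalk of the large subunit recruits translation factors. Most yeast ribosomal protein genes exist as A and B copies left by a whole-genome duplication, and their transcription, through Rap1, Fhl1, Ifh1 and Sfp1, answers to the TOR and protein kinase A pathways. In yeast, transcripts of this family are known to rise and fall together with growth rate. Several copies also carry feedback through their introns, by which the protein holds back its own mRNA.

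Values are log2 levels made by robust multi-array averaging, so 1 unit is a doubling, and differences are given ± the standard error (SE) of a limma fit over all 12 arrays. A gene passed the test where its p-value, adjusted by Benjamini-Hochberg over all 5449 genes, was under 0.05. The levels are relative, since the averaging equalises the arrays, and fewer cells or less RNA per cell cannot be told apart. The label check held for SO16, where GAL80 read 6.29 and 6.04, against 11.32 and 11.43 in REF, near the background of 6.002. It did not hold for PGM2: the gene PGM2 read 10.49 and 10.87 on the arrays labelled PGM2, against 12.14 and 12.11 in REF. The gene read 11.41 and 11.40 in E62A, 12.17 and 12.14 in E62B, 13.43 and 13.19 in E62C and 11.75 and 11.62 in SO16, so its highest values were on the arrays labelled E62C. The names E62C and PGM2 therefore stand below for the arrays that carry these labels, and the directions given for them rest on the labels. E62C replicate 2 and SO16 replicate 2 stood apart, with hybridisation controls at 9.89 and 9.87, against 11.01 to 12.34 on the other arrays, and ribosomal RNA signals of 11.91 and 11.55, against at most 10.32.

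On these equalised levels, the ribosomal protein genes were nearly level across the 6 groups. Equalising can also reduce a shift that many bright genes share, and 119 of the 127 members had means above 12. Whether it did so here was not tested. Only RPS9A and RPS22B passed the F-test over the 6 groups, 2 of 127 genes, where 27.2% of all genes did. At an unadjusted p under 0.05 the F-test took 3 of the 127, or 2.36%, against 39.7% of all genes. The median range between a member's highest and lowest group mean was 0.11 on the log2 scale, against 0.26 over all genes. That range was under 0.1 for 52 members, between 0.1 and 0.2 for 60, between 0.2 and 0.3 for 10 and over 0.3 for 5. No member exceeded 0.5, which 15.8% of all genes did. The 5 widest were RPS9A (0.49), RPS22B (0.36), RPS17B (0.33), RPS19A and RPS21A (both 0.31), all small subunit genes, and the narrowest was RPP0 (0.013), the base of the stalk.

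These genes are among the brightest on the array, where the scale can compress differences. Their mean signals had a median of 13.2, with 119 of the 127 above 12 and RPL10, whose protein is needed for the subunits to join, at the top with 13.9. The 95th percentile of all genes was 12.5 and the highest deposited value was 14.43. Of 309 genes above 12 that are not members, 30.4% passed the F-test. Their median range was 0.22, against 0.11 for the 119 bright members. These genes were matched to the members only by the cut at 12, while 79 members lay above 13. Whether compression lowered the members' differences was not tested. Of the 8 members at or below 12, only RPS9A passed the F-test. The other 7 were RPL4B, RPL15B, RPL22B, RPL41A, RPS1A, RPS10B and RPS19A, with ranges from 0.105 to 0.307.

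**Figure D1:**
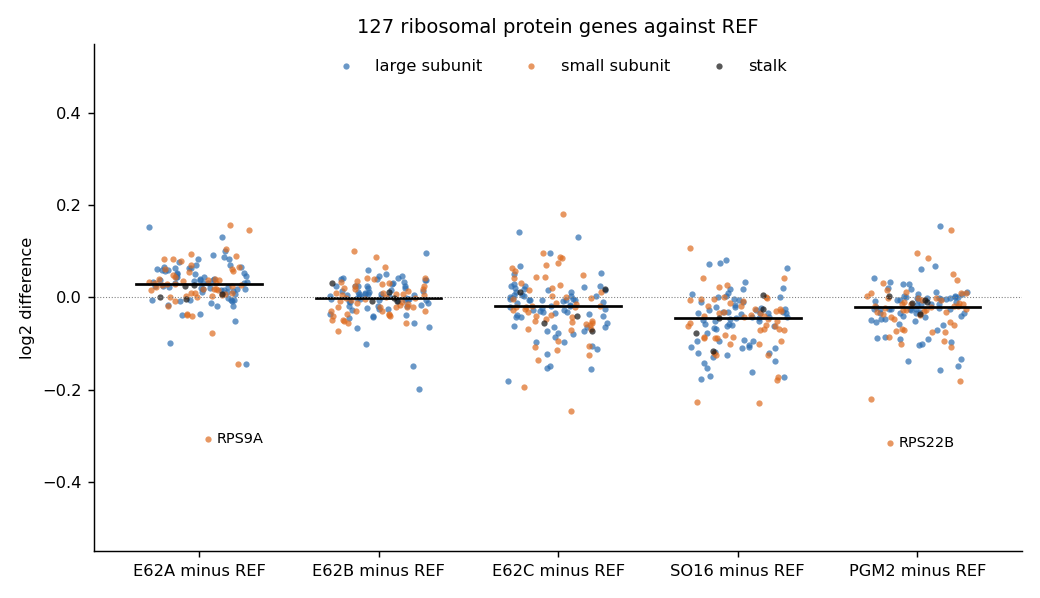
Log2 differences from REF of the 127 ribosomal protein genes in the 5 other groups, 1 point per gene, coloured by subunit, with a black line at the median of the 127. The points stay within 0.32 of 0, and the 2 named points, RPS9A in E62A and RPS22B in PGM2, are those that passed the test.

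In E62A, 1 member fell and none rose, where 12.5% of all genes passed the test. That member was RPS9A, at -0.31 ± 0.076 (adjusted p = 0.0211, limma). The median of the 127 differences was 0.03, against 0.0035 over all genes. Above 0 were 102 of the 127, or 80.3%, against 50.8% of all genes. By array, the members' median stood 0.036 and 0.021 above the REF mean on the E62A arrays, against 0.017 and -0.017 on the REF arrays. Both E62A arrays lay above both REF arrays for 44 members, or 34.6%, against 30.9% of all genes, and below both for 7 members, or 5.51%, against 30.6% of all genes. The next largest differences were RPS26B, a protein beside the mRNA exit, with 0.16 ± 0.061, and RPL4B, a protein that lines the exit tunnel, with 0.15 ± 0.063. Neither passed (limma adjusted p = 0.126 and 0.155).

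In E62B, 0 members passed the test, as did 0% of all genes. At an unadjusted limma p under 0.05 there were 0 members and 97 of all genes. The members' median difference was -0.0006, with 63 of 127, or 49.6%, above 0, against 59.5% of all genes. The arrays stood apart from REF upwards for 17 members (17.3% of all genes did) and downwards for 8 (13.2%). The largest differences were RPL41A, the shortest ribosomal protein, at -0.20 ± 0.133, RPL27A at -0.15 ± 0.091 and RPS16B, whose tail reaches the tRNA in the decoding site, at 0.10 ± 0.060. For RPL41A, the dimmest member with a mean of 7.11, and for RPL27A the arrays of E62B and REF overlapped. The RPL41A probe set is shared with another transcript. The 95% intervals lay within 0.5 of 0 for all 127 genes and within 0.25 for 111.

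In E62C, 0 members passed, against 9.80% of all genes, and 3 had an unadjusted limma p under 0.05, against 1343 of all genes. The members' median difference was -0.019 and 44 of 127, or 34.6%, were above 0, against 57.7% of all genes. The largest difference was RPS19A, whose protein is needed to mature the small subunit, with 11.46 and 11.53 on the E62C arrays, against 11.92 and 11.57 on the REF arrays. Its difference was -0.25 ± 0.0999 (adjusted p = 0.154), and the gap to the nearer REF array was far smaller than the gap between the REF arrays. RPS30A read -0.19 ± 0.097 and RPS9A 0.18 ± 0.076 (adjusted p = 0.251 and 0.162). The RPS30A probe set is shared with another transcript. Arrays did not overlap for 8 members above REF, where 29.1% of all genes lay, and for 14 below, where 19.7% lay.

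In SO16, again 0 members passed, against 8.79% of all genes, and 2 had an unadjusted limma p under 0.05, against 1136 of all genes. The members' median was -0.044, the lowest of the 5 groups. Of the 127 differences 20, or 15.7%, were above 0, against 48.7% of all genes. The members' median stood at -0.016 and -0.065 from the REF mean on the SO16 arrays, against 0.017 and -0.017 on the REF arrays, so SO16 replicate 1 lay level with REF replicate 2 and the lower value came from the array with weak controls. Both SO16 arrays were above both REF arrays for 3 members (19.4% of all genes) and below for 27, or 21.3%, the same share as over all genes, 21.3%. RPS17B had the largest difference, -0.23 ± 0.171, with 13.12 and 12.52 in SO16 against 13.16 and 12.94 in REF, so only replicate 2 was low. RPS22B at -0.23 ± 0.078 (adjusted p = 0.112) had both SO16 arrays below REF, and RPS24A at -0.18 ± 0.101 did not.

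In the arrays labelled PGM2, 1 member fell and none rose, where 13.6% of all genes passed. It was RPS22B, at -0.32 ± 0.078 (limma adjusted p = 0.0216). The members' median was -0.022 with 31 of 127, or 24.4%, above 0, against 52.3% of all genes. Arrays did not overlap for 7 members above REF (29.8% of all genes) and 29 below (25.8%). RPS21A, with 13.42 and 13.38 in PGM2 against 13.65 and 13.59 in REF, differed by -0.22 ± 0.103, and RPS27A by -0.18 ± 0.068. Both had PGM2 arrays below both REF arrays but did not pass (adjusted p = 0.217 and 0.117).

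Each of these 5 comparisons uses the same 2 REF arrays. Over all 5, 95% intervals of the difference had a median half-width of 0.151, and they lay within 0.5 of 0 for 126 or 127 of the 127 genes and within 0.25 for 81 to 111. Large and small subunit genes had nearly the same medians: 0.033 and 0.028 in E62A, 0.003 and -0.004 in E62B, -0.017 and -0.020 in E62C, -0.043 and -0.045 in SO16, and -0.024 and -0.022 in PGM2. The standard deviation of the members' differences was 0.055, 0.040, 0.066, 0.061 and 0.059 in E62A, E62B, E62C, SO16 and PGM2, against 0.264, 0.093, 0.257, 0.266 and 0.281 over all genes. The sign of the members' median depended on scaling in E62C, where quantile normalization gave 0.015, and in E62B, where it gave 0.0021. In E62A it was positive and in SO16 and PGM2 negative under each of the 3 other scalings tried, though near 0 in SO16 under quantile normalization. With 1 array left out, the PGM2 median ranged from -0.040 to 0.0037.

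**Figure D2:**
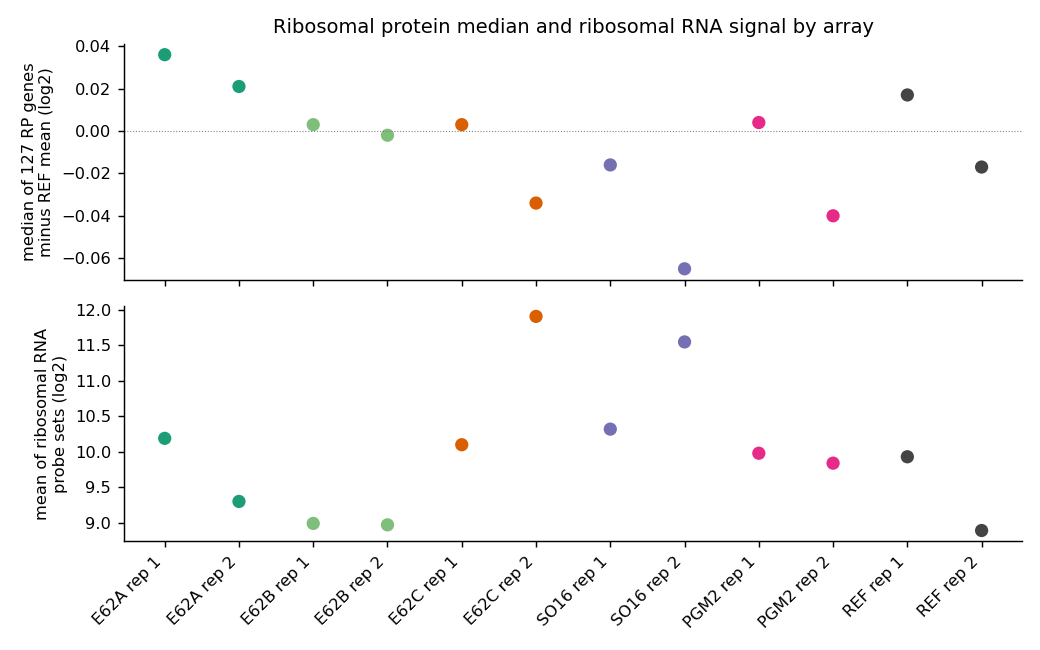
Per array, the median over the 127 genes of the log2 level minus the REF mean (top) and the mean log2 signal of 17 ribosomal RNA probe sets (bottom). The members' medians span -0.065 to 0.036, and E62C replicate 2 and SO16 replicate 2 have the highest ribosomal RNA signals, 11.91 and 11.55.

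In E62B, E62C, SO16 and PGM2, replicate arrays differed among themselves by at least as much as the members' median did from REF. The E62A arrays differed by less than their median difference from REF, and the REF arrays by more than it. The median over members of replicate 2 minus replicate 1 was -0.009 in E62A, -0.002 in E62B, -0.036 in E62C, -0.046 in SO16, -0.040 in PGM2 and -0.034 in REF. Across members, the standard deviation of the gap between replicates was 0.044 in E62A, 0.053 in E62B, 0.124 in E62C, 0.149 in SO16, 0.049 in PGM2 and 0.093 in REF. The spread was thus widest in the groups that hold the arrays with weak controls. Without those 2 arrays the members that passed were RPS9A in E62A, RPL9B in E62C (-0.28 ± 0.073, adjusted p = 0.0297), RPL15B, RPL27B, RPS21A and RPS23B in SO16, all lower and with limma adjusted p from 0.0271 to 0.0476, and RPS21A and RPS22B in PGM2. E62C and SO16 then have 1 array each, which is assumed to vary like the others, and 13.7% and 16.5% of all genes passed there, with 22.9% in E62A and 22.2% in PGM2.

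RPS9A had the widest range of the family. Its protein sits at the mRNA entry of the small subunit, where mutants are known to alter decoding accuracy, and Rps9 is known to hold back splicing of the RPS9A intron. The level was 10.72 and 10.71 in E62A, 10.92 and 10.98 in E62B, 11.20 and 11.21 in E62C, 11.03 and 11.23 in SO16, 11.15 and 11.06 in PGM2, and 10.99 and 11.05 in REF. E62A was lowest on both arrays, and SO16 and PGM2 lay at or slightly above REF. The arrays labelled E62C exceeded those labelled E62A by 0.49 ± 0.076, a fold of 1.40 (adjusted p = 0.00136, limma), and the replicates of each were nearly equal. RPS9A was the only one of 127 members to pass in E62C minus E62A, where 17.8% of all genes passed. There, 6 members (4.72%) had an unadjusted limma p under 0.05, against 32.9% of all genes. The members' median in that comparison was -0.048, with 28 of 127, or 22.0%, above 0, against 56.2% of all genes. The next largest there were RPS19A at -0.31 ± 0.0999 and RPL15B at -0.26 ± 0.092 (adjusted p = 0.0559 and 0.0781). The fall against REF in E62A did not pass when any single array of the 4 compared was left out: the limma adjusted p was 0.116 and 0.144 with either E62A array left out, and 0.0725 and 0.120 with either REF array left out, with differences from -0.34 to -0.28. The E62C minus E62A difference passed in all 20 alternatives tried.

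RPS9B, the other copy, was flat by comparison. It read 13.32 and 13.33 in E62A, 13.28 and 13.26 in E62B, 13.27 and 13.19 in E62C, 13.21 and 13.15 in SO16, 13.18 and 13.14 in PGM2, and 13.28 and 13.25 in REF. Its largest difference from REF was -0.11, in PGM2. Whether the copies changed unequally was tested directly, on the difference of A and B on each array. In E62A the A copy fell relative to the B copy by 0.37 on the log2 scale (SE 0.087, limma adjusted p = 0.0179), and E62C exceeded E62A in that difference by 0.59 ± 0.087 (adjusted p = 0.00102). Without 1 of the 4 arrays the first of these had an adjusted p from 0.0582 to 0.127.

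RPS22B encodes a small subunit body protein, and its intron-containing transcripts are known to be cut by the RNase III Rnt1. It read 12.46 and 12.41 in E62A, 12.43 and 12.32 in E62B, 12.34 and 12.37 in E62C, 12.13 and 12.20 in SO16, 12.16 and 11.996 in PGM2, and 12.46 and 12.32 in REF. The arrays labelled SO16 and PGM2 held the 4 lowest values. Only the PGM2 difference passed, and not without REF replicate 1 (-0.25, adjusted p = 0.163) or PGM2 replicate 2 (-0.23, adjusted p = 0.155). The SO16 minus PGM2 contrast gave 0 members, against 3.40% of all genes, with 0 members and 937 genes at an unadjusted limma p under 0.05. Its largest values were RPS17B at -0.33 ± 0.171, RPL20B at -0.20 ± 0.106 and RPS14B at -0.18 ± 0.083, of which only RPS14B had arrays that did not overlap. RPS17B and RPL20B were each read from a probe set shared with another transcript.

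RPS22A, the other copy, read 12.57 and 12.62 in E62A, 12.55 and 12.51 in E62B, 12.45 and 12.60 in E62C, 12.54 and 12.28 in SO16, 12.62 and 12.52 in PGM2, and 12.67 and 12.49 in REF. Its REF arrays differed by more than its group means did from REF. The test of unequal change in PGM2 gave 0.30 ± 0.097 for A over B and did not pass (adjusted p = 0.0674).

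**Figure D3:**
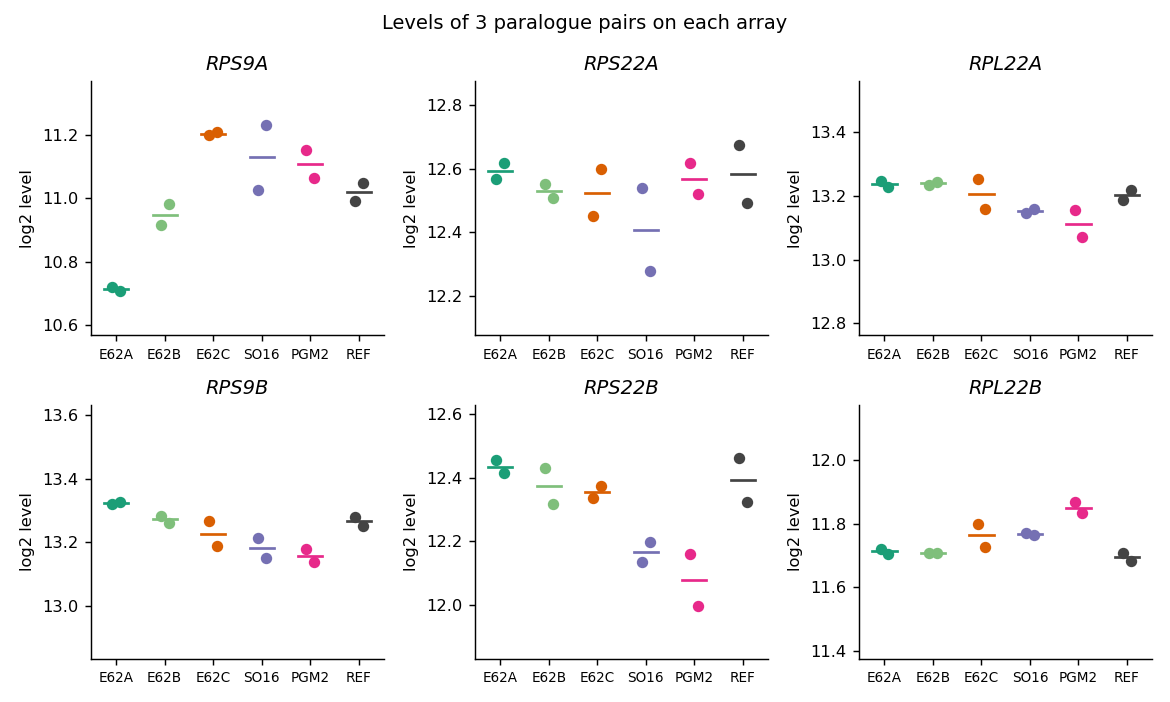
Log2 levels on each array of RPS9A and RPS9B, RPS22A and RPS22B, and RPL22A and RPL22B, with a bar at each group mean; every axis spans 0.8. RPS9A is lowest in E62A (10.72 and 10.71) and has its highest group mean in E62C, RPS22B is lowest in PGM2 and SO16, and RPL22B is highest in PGM2 (11.87 and 11.83).

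Among the 48 A and B pairs with both copies measured, 34 had probe sets of their own for each copy and 14 had at least 1 probe set shared with another transcript. Pairs whose copies changed unequally numbered 1 in E62A (RPS9), 0 in E62B, 0 in E62C, 0 in SO16 and 1 in PGM2 (RPL22). When the 48 differences were added to the gene table, 12.4%, 0%, 9.62%, 8.71% and 13.4% of its rows passed in these comparisons. E62C minus E62A gave 1 pair, RPS9, where 17.6% of rows passed, and SO16 minus PGM2 gave 0, where 3.33% passed. The copies moved within 0.1 of each other in 37 pairs in E62A, 46 in E62B, 31 in E62C, 37 in SO16 and 36 in PGM2. Their median absolute gap was between 0.036 in E62B and 0.073 in E62C. In E62C the gap was 0.066 for pairs with own probe sets and 0.091 for pairs with a shared one.

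RPL22 encodes a large subunit protein that yeast can live without, and Rpl22 is known to bind the intron of RPL22B and hold back its splicing. RPL22A read 13.25 and 13.23 in E62A, 13.24 and 13.25 in E62B, 13.25 and 13.16 in E62C, 13.15 and 13.16 in SO16, 13.16 and 13.07 in PGM2, and 13.19 and 13.22 in REF. RPL22B read 11.72 and 11.70 in E62A, 11.71 and 11.71 in E62B, 11.80 and 11.73 in E62C, 11.77 and 11.76 in SO16, 11.87 and 11.83 in PGM2, and 11.71 and 11.68 in REF. In PGM2 the A copy was below both REF arrays and the B copy above both. Neither copy passed alone (-0.09 ± 0.063 and 0.16 ± 0.059), and the A copy fell relative to the B copy by 0.25 on the log2 scale (SE 0.058, limma adjusted p = 0.0172). In SO16 the same gap was -0.12 ± 0.058 (adjusted p = 0.268), and in E62A, E62B and E62C it lay between -0.07 and 0.03. The PGM2 value did not pass without REF replicate 2 (adjusted p = 0.111), PGM2 replicate 1 (0.0626) or PGM2 replicate 2 (0.101), nor in a fit of the 2 groups alone (0.0513).

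**Figure D4:**
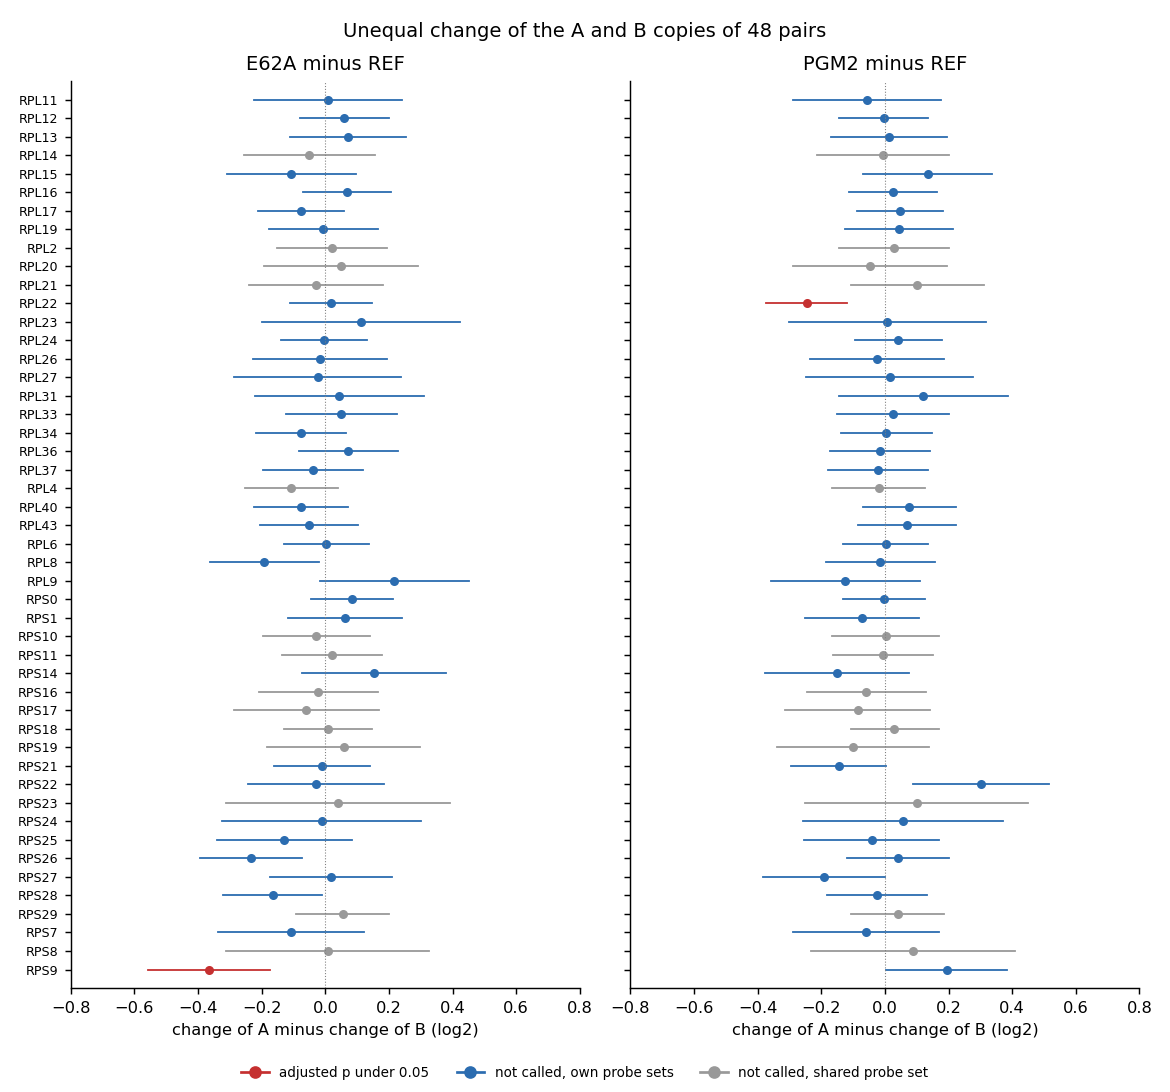
For each of the 48 pairs, the log2 change of the A copy minus that of the B copy in E62A minus REF (left) and PGM2 minus REF (right), with 95% intervals. RPS9 in E62A (-0.37) and RPL22 in PGM2 (-0.25) passed the test, pairs with a shared probe set are grey, and most other intervals cross 0.

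In the comparisons with REF, the 3 other pairs nearest to the threshold were in E62A, and none passed. RPS26A and RPS26B differed by -0.23 ± 0.073 in their change (adjusted p = 0.0600), with RPS26A at 13.28 and 13.34 in E62A against 13.39 and 13.39 in REF, and RPS26B at 13.27 and 13.21 in E62A against 13.08 and 13.08 in REF. The copies of RPL8 differed by -0.19 ± 0.078 (adjusted p = 0.146). Those of RPS28, where the Rps28b protein is known to speed decay of its own RPS28B mRNA, differed by -0.17 ± 0.071 (adjusted p = 0.169). In each of these 3 pairs the mean of the A copy was lower and that of the B copy higher in E62A than in REF, but a second probe set of RPL8A, shared with another transcript, gave 0.09 there in place of -0.10. In E62C minus E62A, RPL34 (0.20 ± 0.065, limma adjusted p = 0.0559) and RPL15 (0.26 ± 0.093, adjusted p = 0.0753) came nearest after RPS9. Without E62C replicate 2 and SO16 replicate 2, the differences in E62A were -0.192 for RPL8, 0.216 for RPL9, -0.366 for RPS9 and -0.234 for RPS26. Those in PGM2 were -0.246 for RPL22, 0.194 for RPS9, 0.302 for RPS22 and -0.192 for RPS27. All of these equal the values with all arrays. Only the spread fell, to a median residual standard deviation of 0.0628 over all genes, against 0.0841 with all arrays.

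Of the 8 members with the smallest F-test p-values, 6 did not pass. RPS27A (adjusted p = 0.102) was lowest in PGM2, at 12.75 and 12.64 against 12.86 and 12.89 in REF. RPS14B (0.130), whose splicing Rps14 is known to repress, was highest in PGM2, at 12.49 and 12.43 against 12.36 and 12.27 in REF, and lowest in E62A, at 12.23 and 12.10. RPS26B (0.138), RPL15B (0.170), RPL43B (0.179) and RPS19A (0.226) followed. RPL15B was 9.98 and 10.03 in E62A, 9.66 and 9.84 in E62C, and 9.86 and 9.95 in REF.

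None of the 5 stalk genes passed in any comparison with REF. RPP0, which anchors the stalk, differed from REF by -0.001 to 0.012 in the 5 groups, each with an SE of 0.060. The acidic proteins RPP1A, RPP1B, RPP2A and RPP2B, which bind the translation factors, differed by -0.12 (RPP2A in SO16) to 0.03 (RPP1B in E62B). On the low side, RPP2A read 13.14 and 13.07 in SO16 and 13.23 and 13.07 in E62C, against 13.24 and 13.20 in REF.

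For 20 members a further probe set was named, and 15 of these genes were represented by a probe set shared with another transcript, which cannot tell near-identical copies apart. The median absolute gap between both probe sets' differences was 0.024 to 0.049 over the 5 comparisons, and none of the second probe sets passed in any comparison. The differences of both probe sets had opposite signs for 5 to 9 of the 20 genes, depending on the comparison. RPS17B had the widest gap. Its shared probe set gave -0.12 in E62C and its own 0.28, a gap of -0.40 on the log2 scale, and in SO16 these were -0.23 and -0.05. On E62C replicate 2 the shared set read 12.75 and the gene's own 13.34, and on SO16 replicate 2 they read 12.52 and 13.04. In PGM2 the shared set gave 0.097 and the gene's own -0.142. The RPS17B differences above thus hold for the shared probe set. For RPL20B the shared set gave -0.173 in SO16 and 0.029 in PGM2, and the gene's own gave -0.048 and 0.005. Gaps of about 0.2 were also seen for RPS18B in E62C (-0.23), RPL18B in PGM2 (0.21), RPL8A in E62A (-0.19) and RPS23A in PGM2 (0.19).

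Genes that build ribosomes were read beside those that make up the ribosome. Of 53 ribosome biogenesis genes, 1 rose in E62A, 0 in E62B, 7 in E62C, 0 in SO16 and 0 in PGM2, and none fell, with medians of 0.125, 0.005, 0.157, 0.070 and 0.051. They included NOP6 in E62A (0.40 ± 0.074, limma adjusted p = 0.00458), and UTP5 (0.37 ± 0.076), UTP25 (0.36 ± 0.089) and NOP2 (0.33 ± 0.083) in E62C, with limma adjusted p from 0.0106 to 0.0298. UTP5 and UTP25 act in the processome that forms the small subunit, and NOP2 methylates large subunit RNA. The 7 genes are 13.2% of the list, against 9.80% of all genes in E62C. The 1 gene in E62A is 1.89% of the list, against 12.5% of all genes. In SO16 and PGM2, where 0 of the list passed, 8.79% and 13.6% of all genes did. The medians stand against 0.0035 over all genes in E62A and 0.028 in E62C. Of 20 dedicated chaperones and transporters of ribosomal proteins, 2 rose in E62A, 4 in E62C and 1 in PGM2, and none fell. TSR4, which folds Rps2, rose by 0.44 ± 0.084, ARX1, an export factor of the large subunit, by 0.40 ± 0.092, and SYO1, which imports Rpl5 and Rpl11, by 0.40 ± 0.113 in E62C. BCP1, a chaperone of Rpl23, rose by 0.33 ± 0.066 in E62A. Without E62C replicate 2 and SO16 replicate 2, 6 biogenesis genes rose in E62A, 8 in E62C and 2 in PGM2, and 1 fell in SO16 and 1 in PGM2. In the same fit 5 chaperones rose in E62A, 5 in E62C, 1 in SO16 and 1 in PGM2, and 1 fell in SO16 and 1 in PGM2. It called 22.9% of all genes in E62A, 13.7% in E62C, 16.5% in SO16 and 22.2% in PGM2.

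Of the other lists, few genes passed in the comparisons with REF. Over all genes, 12.5% passed in E62A, 0% in E62B, 9.80% in E62C, 8.79% in SO16 and 13.6% in PGM2. None of 14 RNA polymerase I genes passed, and the largest values were RPA135 (0.34 ± 0.112) and RPA190 (0.32 ± 0.093), both in E62C and both subunits of the enzyme that transcribes ribosomal RNA. None of 11 elongation factor genes passed, with ANB1 at 0.18 ± 0.072 in E62A and CAM1 at -0.17 ± 0.070 in PGM2. Of 21 initiation factor genes, TIF35 (0.29 ± 0.076) and TIF4631 (0.26 ± 0.073) rose in E62C, and none passed there without E62C replicate 2 and SO16 replicate 2. Those that rose are 9.52% of the initiation factor genes. Of 16 regulators of ribosomal protein genes, SCH9, a kinase downstream of TOR, rose by 0.28 ± 0.075 in E62A. YAK1, a kinase that protein kinase A opposes, fell by 0.37 (SE 0.082) in PGM2, 1 other rose in PGM2 and 1 other fell in E62C. These are 6.25% of the regulators in E62A, 6.25% in E62C and 12.5% in PGM2. Of 71 mitochondrial ribosomal genes, 3 fell in E62A, 1 rose and 1 fell in E62C, 1 fell in SO16 and 2 fell in PGM2. These are 4.23%, 2.82%, 1.41% and 2.82% of the list, each below the share of all genes. MRPL27 fell by 0.25 (SE 0.069) in E62A, MRPS12 by 0.24 (SE 0.063) in PGM2 and MRP8 by 0.37 (SE 0.057) in E62C, and MRP21 rose by 0.41 ± 0.115 in E62C. The MRP21 value was 0.23 and did not pass without E62C replicate 2. MRP8 belongs to that list by its name alone. In E62C minus E62A, 12 of the 71 mitochondrial genes (16.9%) and 5 of the 21 initiation factor genes (23.8%) rose and none fell, where 17.8% of all genes passed. All these values share the REF arrays with the members' differences.

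**Figure D5:**
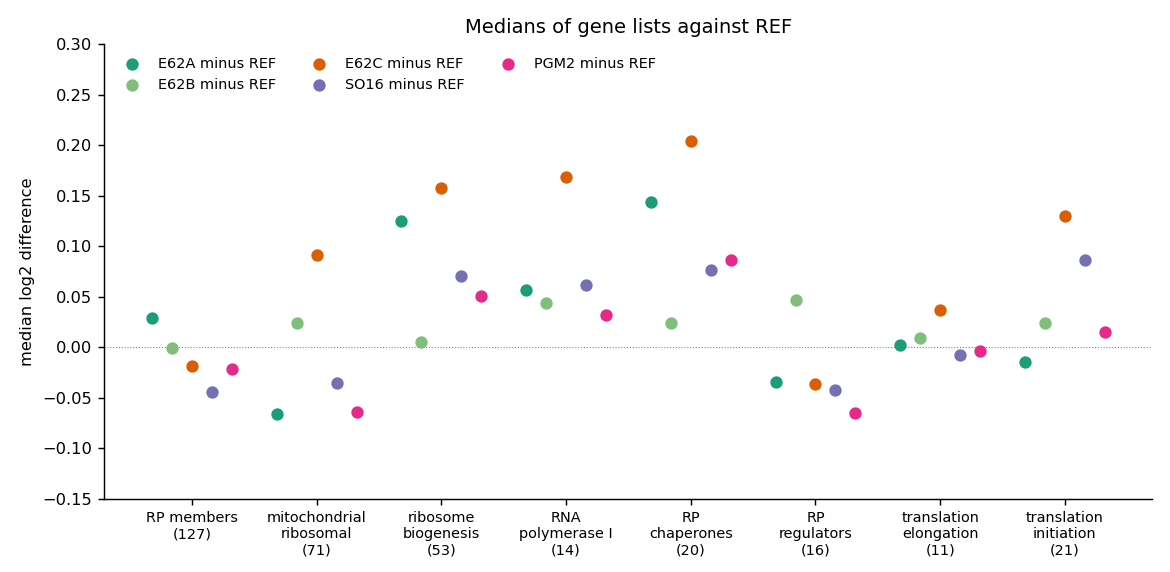
Median log2 difference from REF of the 127 ribosomal protein (RP) genes and of 7 other gene lists, 1 point per group, with the number of measured genes under each name. The RP medians lie between -0.044 and 0.029, and the ribosome biogenesis median reaches 0.157 in E62C.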

How the data were processed

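Per the labels' protocols, total RNA was labelled with biotin following Affymetrix's manual. The values are the log2 levels of 10928 probe sets on 12 arrays as the authors deposited them. RMA and affy are named, without versions, in the submitters' processing notes, and no further step is stated. RMA equalises arrays, which removes any shift common to all transcripts and can reduce a shift shared by many of the brightest genes. Probe sets were named through the platform table, updated through the R64 annotation, and the highest of a gene's probe sets was kept, which left 5449 genes. Background, 6.002, was the 95th percentile of 1746 fission yeast probe sets.

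The limma 3.58.1 package (lmFit, contrasts.fit and eBayes, R 4.3.3) fitted 1 mean per group to all 12 arrays, with 6 residual and 4.97 prior degrees of freedom, and p-values were adjusted by Benjamini-Hochberg over all genes. With 2 arrays a group, the smallest p an exact permutation test allows is 0.333. Unequal change of copies was tested on A minus B per array, in a table of 5497 rows. Arrays have no count depth, so their number limits the precision. The steps were tested on simulated data, and figures drawn with matplotlib 3.10.9. The members and lists were chosen with earlier results of these data known. Genes named are the called members, or the 3 with the largest difference where fewer passed, the 8 smallest F-test p-values, the 6 pairs nearest to or past the threshold against REF, the stalk genes, RPL22A and RPL22B, and up to 4 genes of each other list. RPL9B, RPL27B, RPS23B and the genes given without E62C replicate 2 and SO16 replicate 2, the range extremes, the RPL15 and RPL34 pairs and the probe set comparisons were added after values were seen. Alternatives were other scalings, probe set choices, variance models, weighting of arrays, the replicate number as a block, fitting only the groups compared, a stricter threshold and leaving out arrays. A planned search of promoters for factor motifs was not run.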

Additional observations from a re-analysis of the deposited data

Results flagged for a closer look

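RPS9A differed between E62C and E62A in its change against REF, by 0.49 on the log2 scale (SE 0.076, limma adjusted p = 0.00136). RPS9A read 11.20 and 11.21 in E62C and 10.72 and 10.71 in E62A, both arrays of E62C above both of E62A. The REF arrays, 10.99 and 11.05, lay between them. The difference of RPS9A and RPS9B was 0.59 higher in E62C than in E62A (SE 0.087, limma adjusted p = 0.00102).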

How the results depend on the processing

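The called differences of RPS9A, RPS22B, RPL22A minus RPL22B and RPS9A minus RPS9B kept their sign in 20 alternatives each. In E62C minus E62A, RPS9A (0.37 to 0.50, limma adjusted p from 2.5e-04 to 0.0178) and RPS9A minus RPS9B (0.53 to 0.63, adjusted p from 3.12e-04 to 0.0143) passed in all 20. Besides the arrays named with each result, RPS9A lost its F-test without E62A replicate 2 (adjusted p = 0.0534), and RPS22B without E62A replicate 1, E62A replicate 2 or PGM2 replicate 2 (0.0753, 0.0632 and 0.0847). Of 1420 alternative values of 69 named differences that did not pass, 1293 moved by less than 1 SE and 68 passed. The 16 genes called in other lists kept their sign, and 238 of their 320 alternative values passed. Of these 16, MRP8 passed in all 20 alternatives and the other 15 lost the call in at least 1, among them MRP21 (10 lost, 0.226 to 0.587) and SYO1 (7 lost, 0.254 to 0.517). The share of all genes that passed is given here only for the main fit and the fit without E62C replicate 2 and SO16 replicate 2. Counts of members and pairs under the other settings stand without that share, so they cannot be set against it. Median centring moved the median of all genes by up to 0.119, so the counts under it are relative to that shift. It gave 3 members called in PGM2, 11 in E62C minus E62A (10 of them lower) and 7 by the F-test, 2 pairs in E62A, and list medians of 0.084 in E62A, -0.083 in E62C and -0.071 in PGM2. Quantile normalization gave 3 members in E62C minus E62A and medians of 0.015 in E62C and -0.0024 in SO16, and centring on other genes gave 2 members there and 2 pairs in E62A. A variance trend gave 2 members in E62A and in E62C minus E62A, 4 by the F-test, and 2 pairs in E62A and in PGM2. Array weights gave 2 members in E62A, 5 by the F-test, 3 pairs in E62A and 2 in PGM2. All probe sets as rows gave 2 members in PGM2. With the replicate block, 2 members passed in E62C minus E62A and 2 pairs in E62A, and no other count moved by over 1.5 times. The deviations of same-numbered arrays correlated above 0.1 in 6 of 15 pairs of groups over all genes (r from -0.35 to 0.541) and in 10 over the members (r from -0.148 to 0.661). Not every pair did, so the numbers were not taken to pair the samples, although the members' median gap of replicate 2 minus replicate 1 was below 0 in all 6 groups. A fit of the compared groups alone gave 2 members in E62C minus E62A and 4 pairs in E62A. At an adjusted p under 0.01 no member and no pair passed against REF and 1 passed the F-test. Without E62C replicate 2 and SO16 replicate 2, 1 member passed in E62C, 4 in SO16, 2 in PGM2, 2 in E62C minus E62A and 6 by the F-test, and 4, 1, 1 and 4 pairs in E62A, E62C, SO16 and PGM2. Without these and REF replicate 1, an alternative chosen after seeing the data, 4 members passed in E62A, 1 in SO16, 6 in E62C minus E62A and 8 by the F-test, 2, 1, 3 and 2 pairs in those 4 groups, and the medians of E62C and SO16 were 0.021 and 0.0067. RPS22B in PGM2 then had an adjusted p of 0.0844. Leaving out 1 array gave 0 members in E62A and E62B, 0 to 1 in E62C, 0 to 3 in SO16, 0 to 2 in PGM2, 1 in E62C minus E62A, 0 to 1 in SO16 minus PGM2 and 0 to 5 by the F-test, 0 pairs in E62A, E62B and E62C, 0 to 2 in SO16 and 0 to 1 in PGM2, and medians of 0.0044 to 0.046 in E62A, -0.016 to 0.020 in E62B, -0.039 to 0.0033 in E62C, -0.067 to -0.016 in SO16 and -0.040 to 0.0037 in PGM2. For these changes the cause was not tested. All 127 members lay above the background of 6.002, with RPL41A lowest at a mean of 7.11. Of the 127, 119 lie above 12, near the top of the scale, where differences can be compressed.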
